A study of Mus musculus with 33 samples.

Results

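Genes of inflammatory and regulatory cytokines were followed in immune cells sorted from mouse pancreatic tumours: Il1a, Il1b, Il1rn, Il6, Tnf, Il10, Il15, Il18, Il27 and Ebi3. They are a list of names, matched to the row names: 10 genes of the 53735 rows in each of the 9 deposited tables. RNA sequencing was run on 33 libraries from C57BL/6 mice bearing KCKO pancreatic ductal adenocarcinoma cells, 100000 of which had been placed in the tail of the pancreas. Cells were sorted by surface markers. The gate for inflammatory monocytes (IM) was CD45+CD11b+Ly6C+Ly6G-, and that for macrophages of the tumour (TAM) asked for F4/80 and moderate Ly6C on CD45+CD11b+Ly6G- cells. CD8 T cells were sorted as CD45+CD8+. IM and TAM are the populations of main interest here, and CD8 T cells are set beside them. The gate for CD8 T cells holds no other T cell marker, so other CD45+ cells that carry CD8 could pass it.

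Each population had 4 groups. The combination group received stereotactic body radiotherapy (SBRT) and interleukin 12 (IL-12), the IL-12 group received IL-12 alone, the SBRT group received radiotherapy alone, and the unirradiated group served as control. SBRT was 4 fractions of 6 Gy on days 6 to 9 after implantation. IL-12, a cytokine that drives interferon gamma production in T and natural killer cells, was given as 0.5 µg in 2 mg of microspheres on day 10. The labels do not say which groups received empty microspheres, on which day tumours were taken, or whether each library came from a separate mouse. IM and CD8 had 3 libraries in every group. For TAM the IL-12 group had 3 libraries, and the combination, SBRT and unirradiated groups had 2 each.

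In the authors' deposited tables, every treatment is set against unirradiated cells of the same population. No value of a single library is given, so library depth is unknown and no spread by library can be shown. The level used below is the deposited mean normalised count over the libraries of a population. A number after a gene with "log2" is the deposited log2 fold change over unirradiated, and ± is the standard error implied by the deposited Wald statistic. Rose, fell and called are used only for a deposited adjusted p under 0.05 (DESeq2 Wald test). The spread behind these p-values is that between libraries, which may be partly technical. Comparisons within a population share its unirradiated libraries. As these are bulk samples, fewer cells of a type and less RNA per cell cannot be told apart.

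Macrophage, monocyte and T cell markers followed the sort. Macrophage markers summed to a level of 351972 in IM, 1343787 in TAM and 10971 in CD8, monocyte markers to 299048, 66222 and 39464, and T cell markers to 1855, 1877 and 267578. Cd8a stood at 44253 in CD8. Dendritic cell markers summed to 2944 in IM, 3740 in TAM and 7985 in CD8, and B and plasma cell markers to 4557, 3445 and 8674. Neutrophil markers summed to 24140 in IM and 8430 in TAM, both sorted as Ly6G-, and to 553 in CD8. Macrophage transcripts such as Apoe (5064) and C1qb (1871) were present in the CD8 libraries, and no marker list of T cells or macrophages was wholly at 0 in any population. Genes of the dissociation stress response summed to 2275010 in IM and 1786575 in TAM. The part of these lists in the cytokine levels was not tested.

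Cytokines of this group pass signals between innate and adaptive immune cells. IL-1α, IL-1β and TNF set off NF-κB signalling in target cells, IL-1β and IL-18 are made as precursors that caspase-1 cleaves, and the product of Il1rn blocks the IL-1 receptor. IL-15 sustains natural killer cells and memory CD8 T cells. IL-10 restrains macrophages, and IL-27, a heterodimer of the Il27 and Ebi3 products, is secreted by activated myeloid cells and has both stimulating and regulatory effects on T cells.

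Among the 10 cytokine genes, Il27 was the one that rose in both myeloid populations, 1.81-fold to 2.04-fold, in the groups given IL-12. In IM its level was 2.04-fold (log2 1.03 ± 0.15) after the combination and 2.02-fold (1.01 ± 0.15) after IL-12 alone; in TAM it was 1.81-fold (0.86 ± 0.17) and 1.83-fold (0.87 ± 0.17). Ebi3, the partner subunit, rose in IM after the combination, 1.54-fold (0.62 ± 0.16), a call that ended when the statistics were scaled to their own spread over genes (adjusted p = 0.24). The major inflammatory genes Il1b, Tnf, Il1a and Il6 passed the test in none of the 6 myeloid comparisons, nor did Il1rn, Il10, Il15 or Il18. In CD8 T cells Il10 was 2.02-fold higher after the combination (1.01 ± 0.22), a call that ended under the same scaling (adjusted p = 0.096). Il27 had a mean level of 16.8 there.

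In the deposited tables, 2 of the 10 genes were called in IM after the combination, against 6.72% of all tested genes. After IL-12 alone 1 was called in IM, against 3.24%, and after SBRT 0, against 0.519%. In TAM 1 gene was called after the combination, against 4.21% of all tested genes. After IL-12 alone 1 was called in TAM, against 0.935%, and after SBRT 0, against 2.08%. Every called gene was higher than in unirradiated cells, and none of the 10 was called lower in any of the 9 tables. All 10 genes had an adjusted p in each of the 6 myeloid tables. Where 0 were called by the DESeq2 Wald test, 1 gene, Il27, had an unadjusted p below 0.05 both in IM and in TAM after SBRT. The share of all genes under that unadjusted cut is not given here.

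Medians over the 10 genes are given beside those of all tested genes. The median log2 fold change in IM was 0.10 after the combination, 0.08 after IL-12 and -0.03 after SBRT, where all tested genes had -0.02 in each. In TAM it was 0.22, 0.13 and 0.09, where all tested genes had 0.00, -0.01 and 0.00. The statistic was above 0 for 9 of the 10 genes in TAM after the combination, 9 after IL-12 and 8 after SBRT. In IM it was above 0 for 7, 6 and 5 of the 10 after the same treatments.

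**Figure D1:**
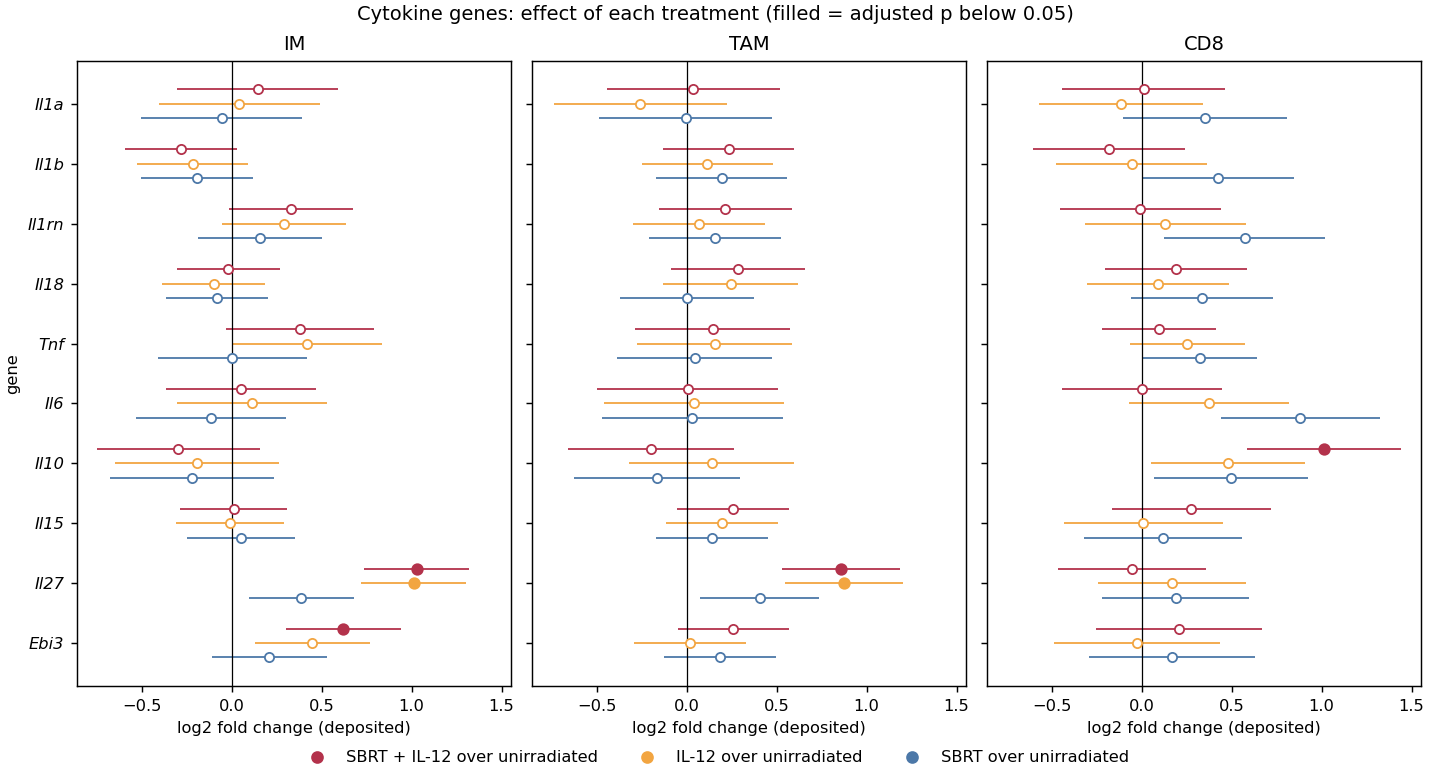
Deposited log2 fold changes over unirradiated of the 10 cytokine genes in IM, TAM and CD8, with 95% intervals from the implied standard error; filled points have an adjusted p below 0.05. The filled points are Il27 in IM (1.03 after the combination, 1.01 after IL-12) and TAM (0.86 and 0.87), and 2 more after the combination. These are Ebi3 in IM (0.62) and Il10 in CD8 (1.01). The intervals of Il1b, Tnf and Il6 in TAM all cross 0. Some open points have intervals above 0, such as Tnf in IM after IL-12.

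Il27 encodes the p28 subunit of IL-27 and lies on the minus strand of chromosome 7 at 126589010 to 126594941 (GRCm38). Its level was 1667 in IM and 1767 in TAM. Among genes with a level above 0, these stood at percentiles 85.6 and 86.5. In CD8 it was 16.8, and in none of the CD8 tables did it have an adjusted p. Group levels can be worked out from the deposited mean and fold changes, if the mean is taken over all 4 groups' libraries. In IM these implied levels were 2135 in the combination group, 2113 in the IL-12 group, 1370 in the SBRT group and 1047 in the unirradiated group. In TAM they were 2093, 2117 and 1530 in the same order of treatments, and 1155 in the unirradiated group. Both IL-12 groups thus stood highest in each myeloid population, with the SBRT group between them and the unirradiated one.

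The deposited adjusted p of Il27 was 1.0e-09 in IM after the combination and 4.4e-09 after IL-12 (DESeq2 Wald test). By the Wald statistic it ranked 69 of 18660 genes after the combination and 34 of 16829 after IL-12. In TAM the adjusted p was 6.9e-05 after the combination and 2.8e-05 after IL-12, with ranks of 49 of 17224 and 11 of 19042. The TAM table for IL-12, the one with 3 treated libraries against 2, stood apart from the other 8: its fold change and statistic had opposite signs in 2795 genes, 190 of them at a level of at least 50, where the other tables had 22 to 594 and 0 to 6. Il27 had the same sign in both columns. Its standard error from that table alone was 0.16, and its effect was 0.94 when taken as the statistic times the shared standard error, against the deposited 0.87. SBRT alone gave a log2 fold change of 0.39 ± 0.15 in IM (adjusted p = 0.37, unadjusted p = 0.0091) and 0.41 ± 0.17 in TAM (adjusted p = 0.27), which did not pass the DESeq2 Wald test after adjustment.

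Whether Il27 responded more to one treatment than to another was tested on differences of effects. These differences use the Wald statistic times the implied standard error, so an effect can depart slightly from the deposited fold change. The test omits the covariance through the shared controls and is conservative. In IM the combination exceeded SBRT by 0.64 ± 0.21 (95% interval 0.23 to 1.05), with a p of 0.0024 by the normal test and an adjusted p over all genes of 0.48, so the difference was not called. With the variance of the shared controls removed, an alternative, the adjusted p of this difference was 0.0036. SBRT was below IL-12 in IM by a difference of -0.62 ± 0.21 (normal test, adjusted p = 1.0; 0.016 with control variance removed). The combination and IL-12 alone differed in IM by 0.01 ± 0.21, with an interval of -0.40 to 0.43. In TAM the corresponding differences were 0.45 ± 0.24 for the combination minus SBRT, -0.54 ± 0.24 for SBRT minus IL-12, and -0.09, with an interval of -0.55 to 0.38, for the combination minus IL-12. With the deposited fold change and that table's own standard error, SBRT minus IL-12 was -0.47 and the combination minus IL-12 was -0.02. None of these TAM differences was called, with or without the control variance.

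The responses of Il27 in IM and in TAM were compared directly. In this and every later IM minus TAM difference, the variances of both effects were summed as if independent. The labels do not say whether IM and TAM libraries came from the same tumours. The IM effect minus the TAM effect was 0.17 (interval -0.27 to 0.61) after the combination, 0.07 (-0.37 to 0.51) after IL-12 and -0.02 (-0.46 to 0.42) after SBRT. None was called, and the intervals leave room for a response up to 0.61 larger or 0.46 smaller in IM on the log2 scale. With both variances summed, which is conservative between treatments, none of the 10 cytokine genes was called in any difference between treatments or between IM and TAM. With control variance removed, Il27 was called in IM for the combination minus SBRT and for SBRT minus IL-12. Il6 was then called in CD8 for the combination minus SBRT. Over all genes that setting called 355 for the combination minus SBRT in IM, 42 in TAM and 461 in CD8. With both variances summed, 67 of 32818 genes (0.204%) were called for the combination minus SBRT in IM, 1 of 32375 (0.00309%) in TAM and 25 of 33127 (0.0755%) in CD8. For the combination minus IL-12 the shares were 0 in IM, 0.0741% in TAM and 0.00302% in CD8, and for SBRT minus IL-12 they were 0.0244%, 0.0896% and 0.0211%. For IM minus TAM the shares called were 0.917% after the combination, 0.0598% after IL-12 and 0.263% after SBRT.

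**Figure D2:**
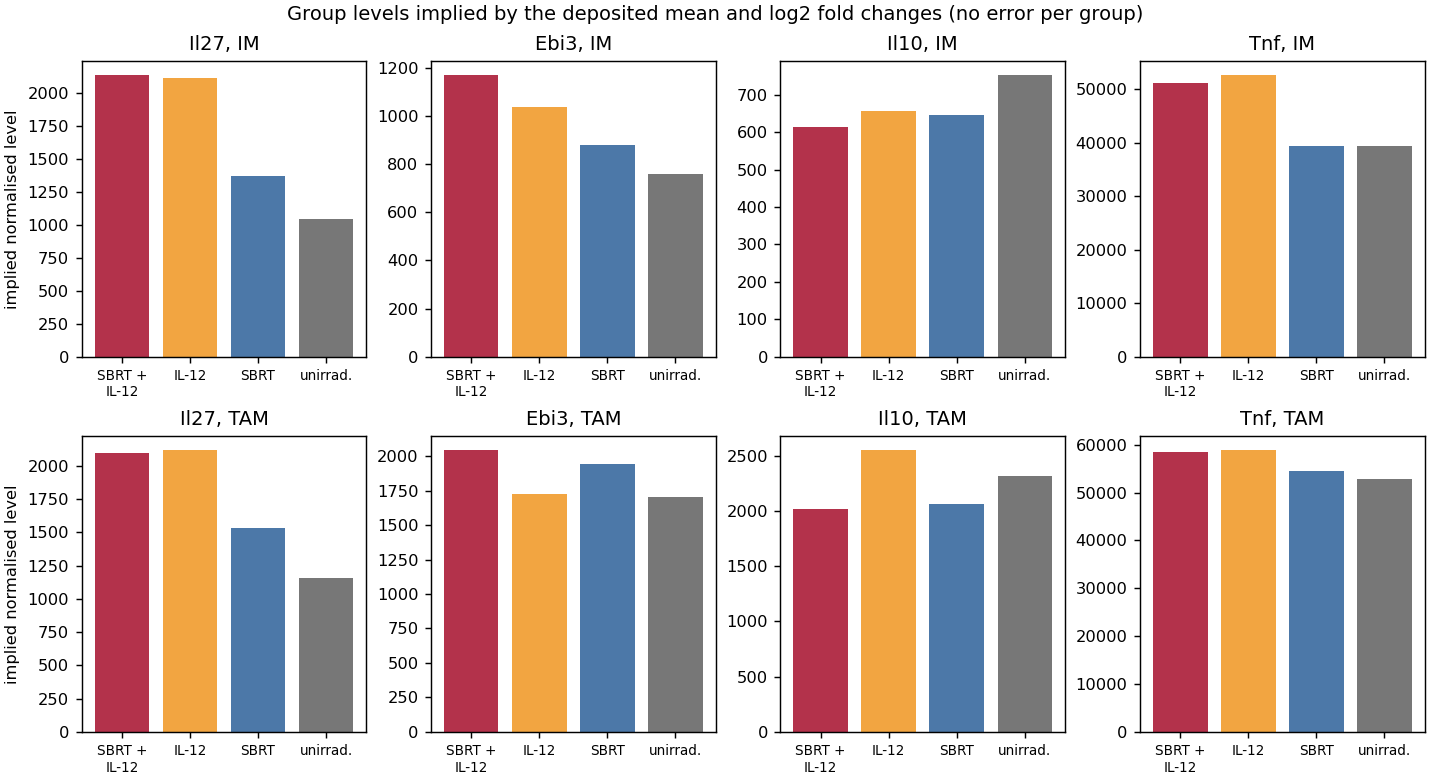
Levels of Il27, Ebi3, Il10 and Tnf in each group of IM and TAM, in normalised counts, implied by the deposited mean and fold changes; each bar is a group, and no library values or errors are available. Il27 stands at 2135 and 2113 in the combination and IL-12 groups of IM, against 1047 in the unirradiated group, and Ebi3 at 1169 in the combination group of IM, against 760 in the unirradiated group.

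Reads of Il27 can be confused with those of a neighbour, because the library kit does not mark strand. Apobr, a lipoprotein receptor gene on the opposite strand, shares 103 exonic bases with Il27. In IM the deposited log2 fold changes of Apobr were -0.03 after the combination, -0.10 after IL-12 and -0.10 after SBRT, none called. In TAM they were 0.58 after the combination, where Apobr rose (deposited adjusted p = 0.039, DESeq2 Wald test), 0.24 after IL-12 and 0.35 after SBRT. The part of Apobr reads in the Il27 values was not tested in either population.

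Ebi3 encodes the subunit that pairs with p28 in IL-27 and, with the Il12a product, in IL-35. It lies on the plus strand of chromosome 17 at 55952640 to 55957022 (GRCm38). Its promoter is shown here because Ebi3 is one of the genes that rose, with that of Il6, which did not pass the test in IM or TAM, beside it. Both are the 250 bases before the RefSeq start (GRCm38.p6, plus strand), at chr17:55952373-55952622 and chr5:30012864-30013113. Capitals mark matches to the κB consensus of NF-κB and to the AP-1 motif TGANTCA.
Ebi3: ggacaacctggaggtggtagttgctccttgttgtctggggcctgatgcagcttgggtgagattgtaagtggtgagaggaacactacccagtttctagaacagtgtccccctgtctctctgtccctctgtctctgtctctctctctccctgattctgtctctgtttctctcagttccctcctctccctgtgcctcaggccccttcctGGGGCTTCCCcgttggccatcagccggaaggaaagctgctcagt
Il6: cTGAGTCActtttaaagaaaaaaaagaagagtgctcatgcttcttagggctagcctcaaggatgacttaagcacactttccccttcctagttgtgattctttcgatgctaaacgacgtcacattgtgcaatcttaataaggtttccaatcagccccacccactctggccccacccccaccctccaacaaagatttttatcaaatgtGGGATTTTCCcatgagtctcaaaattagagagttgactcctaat

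The Ebi3 match, GGGGCTTCCC, and the Il6 match, GGGATTTTCC, both lie at -44 to -35 from the RefSeq start. RefSeq promoters were at hand for 7 of the 10 genes, in 9 windows. The κB consensus was found in 2 of these genes, Ebi3 and Il6, and in 7.25% of the 32851 promoters of the table. AP-1 matches were found in Il1a, Il1rn and Il6, and in 6.75% of all promoters. The interferon gamma-activated site TTCNNNGAA (7.02% of all promoters), the interferon response element (2.98%) and the cyclic AMP element TGACGTCA (1.55%) had no match in the 9 windows. Both strands were searched. A match is a run of letters and not a bound site, and the promoters of Il27, Il10 and Il15 were not used here.

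Ebi3 had a level of 961.6 in IM and 1841 in TAM. In IM its implied levels were 1169 in the combination group, 1038 in the IL-12 group, 879 in the SBRT group and 760 in the unirradiated group. The rise after the combination had a deposited adjusted p of 0.0047 (DESeq2 Wald test). With the statistics scaled to their own spread over genes, an alternative, that adjusted p was 0.24, which ends the call. IL-12 alone gave 0.45 ± 0.16 with an adjusted p of 0.13, and SBRT alone 0.21 ± 0.16 with 0.95, so neither passed that test. This order, highest in the combination group and lowest in the unirradiated one, was not tested as an order. The combination minus SBRT difference was 0.41 ± 0.23, with an interval of -0.04 to 0.86.

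In TAM, Ebi3 had implied levels of 2043 in the combination group, 1729 in the IL-12 group, 1941 in the SBRT group and 1707 in the unirradiated group. Its deposited log2 fold changes were 0.26 after the combination, 0.02 after IL-12 and 0.19 after SBRT, none called. The IM effect minus the TAM effect was 0.36 (interval -0.09 to 0.81) after the combination and 0.42 (-0.02 to 0.87) after IL-12. Neither difference was called, so the rise in IM is not shown to be absent in TAM.

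Gm16712, a gene on the strand opposite to Ebi3, shares 270 exonic bases with it. Its level was 399.9 in IM and 545.4 in TAM. In the deposited table it rose in IM after the combination (log2 0.62, adjusted p = 0.028) and after IL-12 (0.65, adjusted p = 0.032, DESeq2 Wald test), with 0.00 after SBRT. In TAM Gm16712 rose after the combination (0.82, adjusted p = 0.0027) and after SBRT (0.68, adjusted p = 0.033, DESeq2 Wald test). Reads of Ebi3 and Gm16712 in the shared bases cannot be told apart in unstranded libraries.

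Some genes outside the list had fold changes close to those of Il27 or Ebi3 across the 6 myeloid comparisons. Likeness was the Euclidean distance between the 6 log2 fold changes, over 10247 genes with a level of at least 50 in both IM and TAM. The nearest to Il27 were Ly6c1 (distance 0.22), Batf2 (0.23) and Ifit2 (0.27). Ly6c1 had 1.16 after the combination, 1.13 after IL-12 and 0.38 after SBRT in IM, and 0.92, 0.98 and 0.43 in TAM. Batf2 had 1.001, 0.82 and 0.40 in IM, and 0.86, 0.85 and 0.52 in TAM. Ifit2 had 1.14, 1.12 and 0.60 in IM, and 0.90, 0.91 and 0.44 in TAM. Ly6c1 has a near-identical neighbour, Ly6c2, and reads may be split between the pair. The nearest to Ebi3 were Fgd6 (0.15), Stard3nl (0.18) and Fggy (0.21). Fgd6 was called in IM after the combination only (log2 0.65). Stard3nl was called in IM after the combination (0.56) and IL-12 (0.42), and Fggy in no myeloid comparison. These distances carry no test, and the 3 comparisons of a population share controls.

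**Figure D3:**
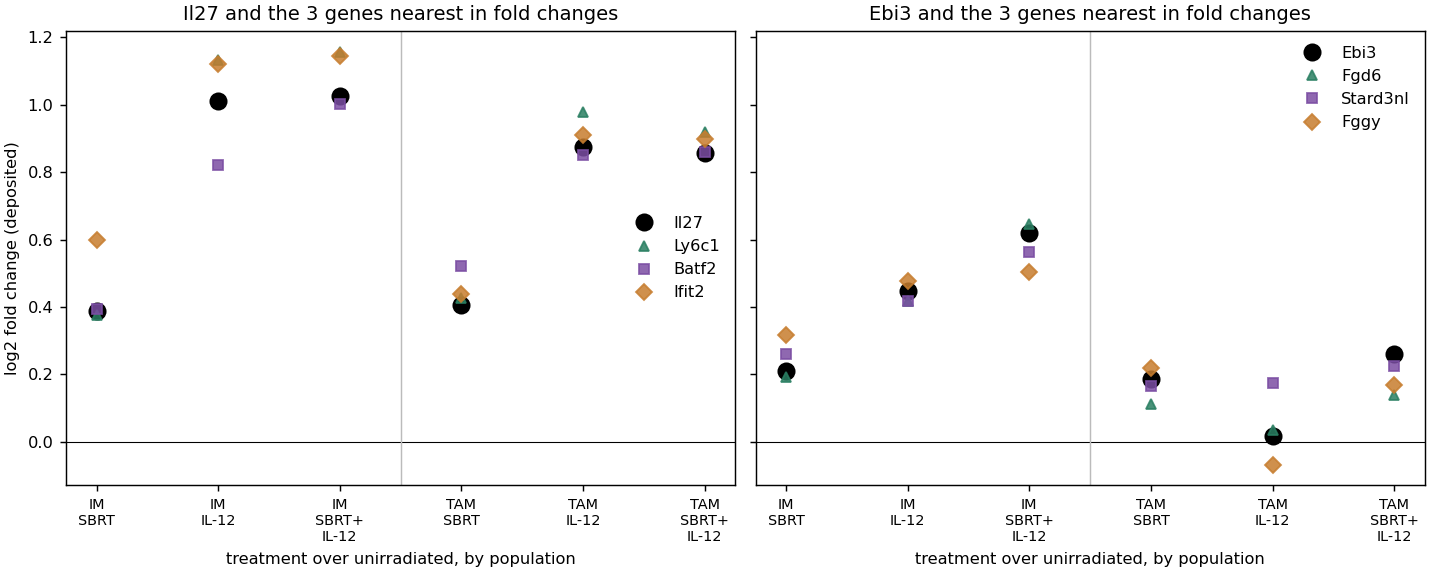
Deposited log2 fold changes of Il27 and Ebi3 and of the 3 nearest genes to each, across the 6 myeloid comparisons. The points of Ly6c1, Batf2 and Ifit2 lie within a distance of 0.27 of those of Il27, high in the groups given IL-12 in both IM and TAM, and those of Fgd6, Stard3nl and Fggy lie within 0.21 of those of Ebi3.

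Il1b (chromosome 2, 129364570 to 129371139, minus strand) was the most abundant of the 10 per length in all 3 populations. It encodes IL-1β, the main secreted IL-1 agonist of myeloid cells. Its level was 207092 in IM, where it made up 0.433% of all normalised counts, and 135601 in TAM. In IM its deposited log2 fold changes were -0.28 ± 0.16 after the combination (adjusted p = 0.38, DESeq2 Wald test), -0.22 after IL-12 and -0.19 after SBRT. In TAM they were 0.23 ± 0.19 after the combination, 0.12 after IL-12 and 0.20 after SBRT. The estimates thus lay below 0 in the 3 IM comparisons and above 0 in the 3 TAM comparisons, with none called. The IM effect minus the TAM effect after the combination was -0.52 ± 0.24 (interval -0.99 to -0.04). Its adjusted p over all genes was 0.59 (normal test with Benjamini-Hochberg adjustment), so it was not called.

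Il1a (chromosome 2, 129299610 to 129309972, minus strand) encodes IL-1α, which can act from the cell that makes it without caspase-1 cleavage. Its level was 11069 in IM and 13047 in TAM. The deposited log2 fold changes in IM were 0.14 after the combination, 0.04 after IL-12 and -0.06 after SBRT, each with a standard error of 0.23. TAM gave 0.04, -0.26 and 0.00, each with a standard error of 0.25. The estimate farthest from 0, -0.26 in TAM after IL-12, was about as large as its standard error.

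Il1rn (chromosome 2, 24336853 to 24351494, plus strand), the receptor antagonist, had a level of 43167 in IM and 47357 in TAM. In IM its deposited log2 fold change was 0.33 ± 0.18 after the combination (adjusted p = 0.33), 0.29 ± 0.18 after IL-12 (adjusted p = 0.56, DESeq2 Wald test) and 0.16 after SBRT. In TAM it was 0.22, 0.07 and 0.16 after the same treatments. All 6 estimates were above 0 and none passed the test.

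Tnf (chromosome 17, 35199381 to 35202007, minus strand) encodes tumour necrosis factor and followed Il1b in abundance per length. Its level was 45613 in IM and 56450 in TAM. In IM the deposited log2 fold changes were 0.38 ± 0.21 after the combination (adjusted p = 0.36), 0.42 ± 0.21 after IL-12 (adjusted p = 0.40, unadjusted p = 0.046, DESeq2 Wald test) and 0.00 after SBRT. TAM gave 0.15, 0.16 and 0.04. The intervals of the 2 IM estimates were -0.03 to 0.79 after the combination and 0.009 to 0.83 after IL-12. A rise of the size of their upper ends is thus within the error.

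Il6 (chromosome 5, 30013114 to 30019981, plus strand), whose product drives the acute-phase response, had a level of 6667 in IM and 1695 in TAM. Its 6 myeloid log2 fold changes ran between -0.12 and 0.11, with standard errors of 0.21 in IM and 0.26 in TAM. Il18 (chromosome 9, 50554827 to 50581840, plus strand) costimulates interferon gamma production together with IL-12. Its level was 1636 in IM, with log2 fold changes of -0.02 after the combination, -0.10 after IL-12 and -0.08 after SBRT. In TAM Il18 had a level of 1261 and log2 fold changes of 0.28, 0.24 and 0.00. None of these was called.

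Il15 lies on the minus strand of chromosome 8 at 82331632 to 82403222. Its level was 1069 in IM and 1253 in TAM. The log2 fold changes in IM were 0.01 after the combination, -0.01 after IL-12 and 0.05 after SBRT, the smallest range of the 10 genes there, with a standard error of 0.15. In TAM they were 0.26, 0.20 and 0.14 with a standard error of 0.16, none called.

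Il10 (chromosome 1, 131019845 to 131024974, plus strand) had a level of 667 in IM and 2273 in TAM. In IM the deposited log2 fold changes were -0.30 ± 0.23 after the combination, -0.19 after IL-12 and -0.22 after SBRT, with adjusted p of 0.60, 0.87 and 0.99 (DESeq2 Wald test). The TAM values were -0.20, 0.14 and -0.17. Il10 was thus not called in either myeloid population.

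Per kilobase of exon (GENCODE M21), the order of levels in IM was Il1b at 108596, Tnf at 27830, Il1rn at 7799, Il1a at 5607, Il6 at 2746, Il27 at 1632, Il18 at 1587, Ebi3 at 833, Il10 at 509 and Il15 at 473. In TAM it was Il1b at 71107, Tnf at 34442, Il1rn at 8556, Il1a at 6609, Il10 at 1735, Il27 at 1731, Ebi3 at 1595, Il18 at 1223, Il6 at 698 and Il15 at 554. The first 4 places were the same in both. Il10 and Il6 changed places most, Il10 being the fifth in TAM and the ninth in IM, and Il6 the fifth in IM and the ninth in TAM. No spread by library is available, so neighbours such as Il27 and Il18 in IM or Il10 and Il27 in TAM cannot be ranked against their error. Populations were normalised separately, and levels across them are given side by side without a test.

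**Figure D4:**
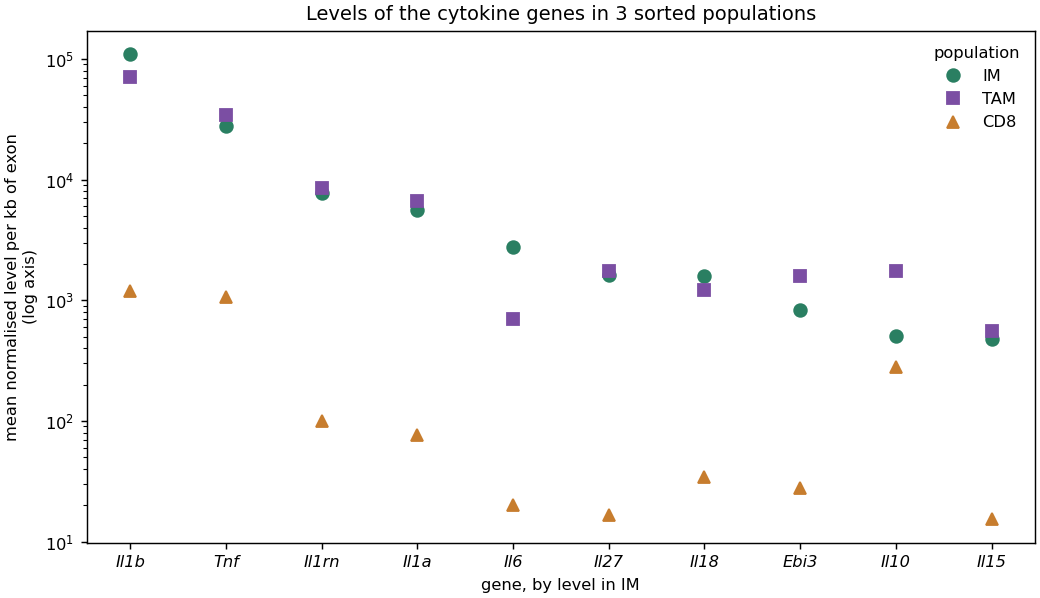
Mean normalised level per kilobase of exon of the 10 cytokine genes in IM, TAM and CD8, on a log axis, from the deposited mean over each population's libraries. Il1b is highest in each population (108596 in IM, 71107 in TAM, 1182 in CD8), and Il27 stands at 16.5 in CD8.

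In the CD8 libraries the cytokine genes were mostly far lower, with Il1b at a level of 2253, Tnf at 1756, Il1rn at 556.6 and Il10 at 363.9. Of the 10 genes, 8 had an adjusted p after the combination, 5 after IL-12 and 9 after SBRT. Il10 was the 1 gene called after the combination, against 7.47% of all tested genes. After IL-12 alone 0 were called, against 2.52%, and after SBRT 0, against 0.471%. There 1 and 4 of the 10 genes had an unadjusted p below 0.05 by the DESeq2 Wald test. The share of all genes under that unadjusted cut is not given here, so these counts have no background. The statistic had a spread over genes of 1.29 in both comparisons. Il10 had implied levels of 505 in the combination group, 348 in the IL-12 group and 353 in the SBRT group, against 250 in the unirradiated group.

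The deposited adjusted p of Il10 in CD8 after the combination was 0.0004 (DESeq2 Wald test), with an interval of 0.59 to 1.44 for the log2 fold change. Scaling the statistics to their own spread over all genes, an alternative, raised this adjusted p to 0.096, which ends the call. IL-12 alone gave 0.48 ± 0.22 (adjusted p = 0.26) and SBRT alone 0.50 ± 0.22 (adjusted p = 0.36), neither called by the DESeq2 Wald test. The combination exceeded IL-12 by 0.50 (interval -0.11 to 1.11) and SBRT by 0.48 (-0.12 to 1.09), and neither difference was called.

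Markers of other cell types moved both ways in CD8 after the combination. Of 8 natural killer markers, at a summed level of 54254, 6 were tested and 2 rose, Gzma (log2 1.07, adjusted p = 5.4e-05) and Prf1 (0.60, adjusted p = 0.019, DESeq2 Wald test), with a median of 0.25 for the list. Both encode cytotoxic granule proteins that CD8 T cells also make, and Ncr1, a defining natural killer receptor gene, had a level of 15.2. Kit was the 1 mast cell marker tested and rose (0.69, adjusted p = 0.047, DESeq2 Wald test), while Mcpt4 and Fcer1a were at 0. All 10 macrophage markers had statistics below 0, with a median log2 fold change of -0.48 and 0 called. The 10 T cell markers (median -0.17) and the 6 tested B and plasma cell markers (-0.34) also had statistics below 0, with 0 called. Of 10 dendritic cell markers, 7 had statistics above 0, with a median of 0.15 and 0 called. Col1a2 of the fibroblast list fell by 0.76, Pecam1 and Kdr of the endothelial list by 0.72 and 0.60, 1 monocyte marker fell, and Ier2 of the dissociation stress genes fell by 0.36. The part of these shifts in the Il10 value was not tested.

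Il6 in CD8, at a level of 48.9, had a log2 fold change of 0.88 ± 0.23 after SBRT in the deposited table, with an adjusted p of 0.052 (DESeq2 Wald test) just past the threshold. After the combination it was 0.00 (adjusted p = 1.0), and after IL-12 it was 0.37 with no adjusted p. The combination minus SBRT difference was -0.82 ± 0.32 (interval -1.45 to -0.20). It was not called, and its adjusted p with control variance removed was 0.027 (normal test with Benjamini-Hochberg adjustment). All 10 cytokine genes had statistics above 0 in CD8 after SBRT, with a median log2 fold change of 0.34, where all tested genes had 0.00. Macrophage markers had a median of 0.22 in that comparison, with 9 of 10 statistics above 0 and 0 called, and neutrophil markers one of 0.19. Their part in the cytokine values was not tested.

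The genes around these cytokines were taken as 8 lists with 100 genes, of which 96 were in the tables; the 4 unmatched names were of the IL-1 family. In IM, 11 of the 83 tested genes rose and 7 fell after the combination, 5 rose and 3 fell after IL-12, and 3 rose and 0 fell after SBRT. In TAM 6 rose and 1 fell of 80 after the combination, 3 rose of 83 after IL-12 and 2 rose of 81 after SBRT. In CD8 4 rose and 5 fell of 74 after the combination, 0 rose and 3 fell of 70 after IL-12, and 0 of 77 were called after SBRT. Over all tested genes the share that rose in IM was 3.69% after the combination, 1.91% after IL-12 and 0.379% after SBRT, and the share that fell was 3.03%, 1.33% and 0.14%. In TAM 2.24%, 0.651% and 0.933% of all tested genes rose after the same treatments and 1.97%, 0.284% and 1.15% fell. In CD8 4.51%, 1.48% and 0.306% rose and 2.96%, 1.04% and 0.165% fell.

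Among 13 negative regulators, Il18bp and Socs1 were the genes that rose in the myeloid cells, and the other 11 were not called there. Il18bp, whose product binds and neutralises IL-18, had a level of 6981 in IM and 13302 in TAM. In the deposited IM tables its log2 fold change was 1.47 after the combination (adjusted p = 1.8e-22), 1.24 after IL-12 (3.3e-15) and 0.68 after SBRT (adjusted p = 0.0017, DESeq2 Wald test). In TAM it was 0.999 after the combination (adjusted p = 4.6e-06), 0.88 after IL-12 (adjusted p = 9.1e-05) and 0.53 after SBRT (adjusted p = 0.089, DESeq2 Wald test). Il18 itself was not called in either population.

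Socs1, which blocks signalling from JAK kinases, was called in all 6 myeloid tables. Its log2 fold change in IM was 1.10 after the combination (adjusted p = 5.9e-11), 0.53 after IL-12 (0.020) and 0.63 after SBRT (adjusted p = 0.011, DESeq2 Wald test). In TAM it was 0.89, 0.63 and 0.63. In CD8 Sigirr, a negative regulator of IL-1 family receptor signalling, fell by 0.47 after the combination (adjusted p = 9.8e-06) and by 0.32 after IL-12 (adjusted p = 0.021, DESeq2 Wald test). The median of the 13 regulators in IM after the combination was -0.11, where all tested genes had -0.02.

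The 15 receptor genes went both ways in IM after the combination, with 3 higher and 3 lower. Il15ra, which presents IL-15 to neighbouring cells, rose in IM after the combination (log2 0.59, adjusted p = 0.0010) and after IL-12 (0.49, adjusted p = 0.018, DESeq2 Wald test), with 0.07 after SBRT. In TAM Il15ra rose after the combination (0.92, adjusted p = 0.00067) and after IL-12 (0.66, adjusted p = 0.046, DESeq2 Wald test), with 0.49 after SBRT. It was the receptor called in TAM, and its ligand gene Il15 was called in neither population.

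Il1rap, the accessory chain of the IL-1 receptor, fell in IM by 1.12 after the combination (adjusted p = 1.4e-07) and by 0.81 after IL-12 (adjusted p = 0.00094, DESeq2 Wald test), with -0.39 after SBRT. Il1r2, a decoy receptor for IL-1, rose in IM after the combination (0.83, adjusted p = 0.00011, DESeq2 Wald test). Il6ra, the IL-6 binding chain, fell there by 0.44 (adjusted p = 0.011), Il10rb by 0.32 (adjusted p = 0.029), and Il2rg, the common gamma chain, rose by 0.31 (adjusted p = 0.039, DESeq2 Wald test). In CD8 after the combination Il6ra fell by 0.64 and Il6st, its signalling chain, by 0.60.

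Receptors of the cytokines made here were spread over the populations. Il27ra, the IL-27 receptor, had a level of 7053 in CD8, 174.5 in IM and 243 in TAM. Its deposited log2 fold change in CD8 was -0.44 after the combination (adjusted p = 0.052), -0.38 after IL-12 (adjusted p = 0.19, DESeq2 Wald test) and -0.13 after SBRT, none called. The IL-18 receptor gene Il18r1 had a level of 2476 in CD8, 48.5 in IM and 19.8 in TAM, and Il2rb, shared by the IL-2 and IL-15 receptors, 79825 in CD8. These levels come from tables normalised separately.

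Of 12 genes for processing and release, Casp1, the protease that cleaves the IL-1β and IL-18 precursors, rose after the combination in IM (log2 0.49, adjusted p = 0.0013) and in TAM (0.60, adjusted p = 0.0045, DESeq2 Wald test). Casp4, a sensor of intracellular lipopolysaccharide, rose in TAM after the combination (0.63, adjusted p = 0.022), and Nlrp1b, an inflammasome sensor, in TAM after SBRT (0.69, adjusted p = 0.044, DESeq2 Wald test). The median of the list was 0.02 in IM and 0.13 in TAM after the combination.

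The 17 genes of NF-κB and Toll-like receptor signalling were nearly all uncalled. Nfkb2 fell in IM after the combination by 0.41 (adjusted p = 0.0026, DESeq2 Wald test) and was the one gene of the list called in a myeloid table. In CD8 Rel fell by 0.51 after IL-12 and Tlr4 by 0.59 after the combination. Of 7 genes of the IL-10 response, Sbno2, a corepressor downstream of STAT3, fell in IM by 0.36 after the combination (adjusted p = 0.030) and by 0.39 after IL-12 (adjusted p = 0.025, DESeq2 Wald test), and 0 were called in TAM. Il12b, which encodes the p40 subunit of IL-12 and IL-23, rose in IM after the combination (0.60, adjusted p = 0.018, DESeq2 Wald test) at a mean level of 86.4. In TAM Il12b, at a level of 881, was not called, and neither were Il12a or Il23a in any table where they had an adjusted p.

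**Figure D5:**
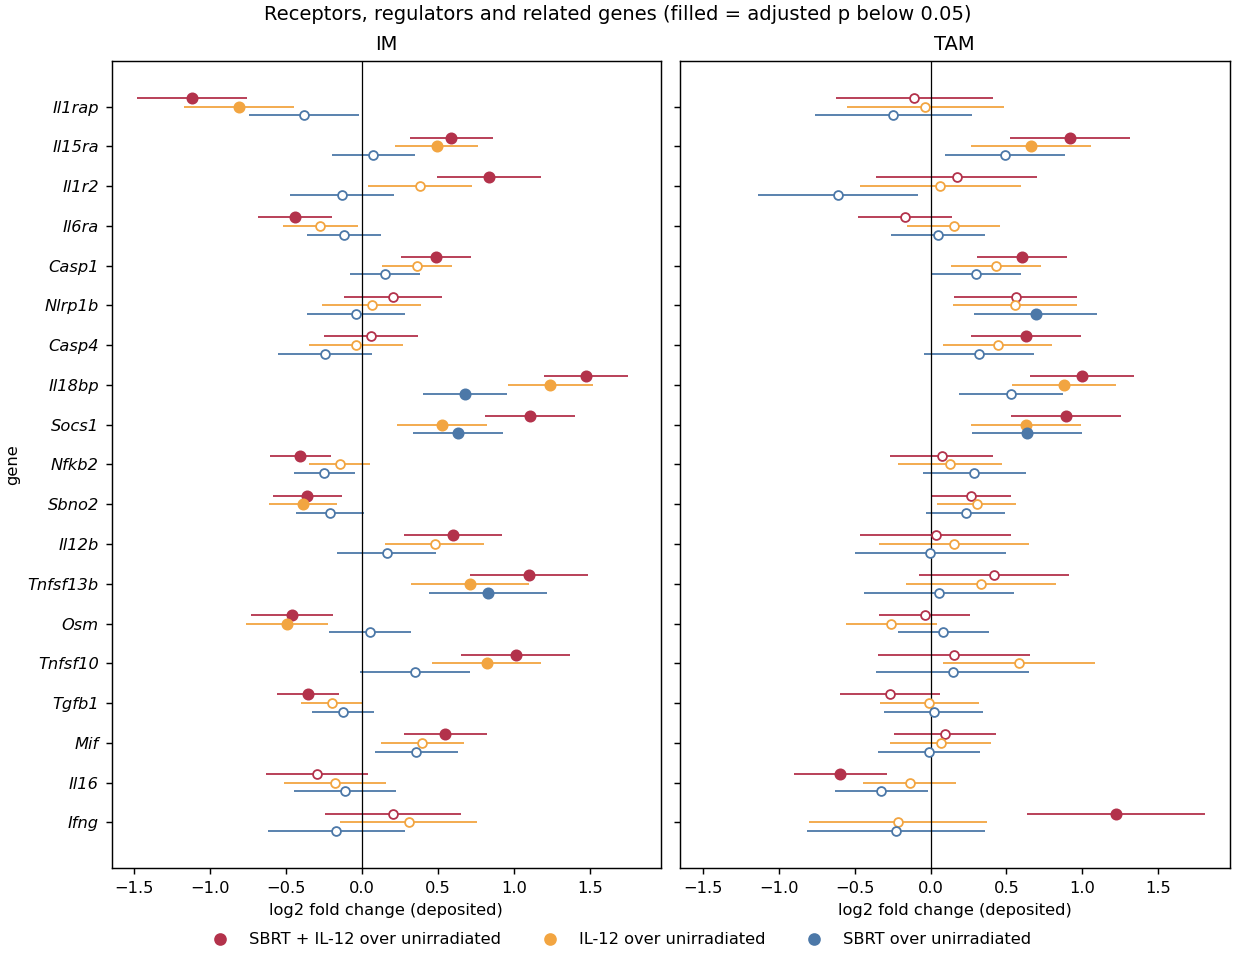
Deposited log2 fold changes over unirradiated, with 95% intervals, of genes of the receptor, regulator, processing and cytokine lists that were called in a myeloid comparison, up to 4 per list and comparison by adjusted p; filled points have an adjusted p below 0.05. Il18bp reaches 1.47 in IM and 0.999 in TAM, Socs1 is filled in all 6 myeloid comparisons, and Il1rap lies at -1.12 in IM after the combination.

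Of 25 other cytokine genes, 16 were tested in IM after the combination, with 4 higher and 2 lower. Tnfsf13b, which encodes the B cell survival factor BAFF, rose in IM after the combination (log2 1.10, adjusted p = 3.3e-06), IL-12 (0.71, adjusted p = 0.014) and SBRT (0.83, adjusted p = 0.010, DESeq2 Wald test). Tnfsf10, the gene of the death ligand TRAIL, rose after the combination (1.01, adjusted p = 3.7e-06) and IL-12 (0.82, adjusted p = 0.00070, DESeq2 Wald test). Osm, which encodes oncostatin M, fell in IM by 0.46 after the combination and by 0.50 after IL-12, and Tgfb1 fell by 0.36 after the combination. Mif rose there by 0.55 and Il4 by 0.60.

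In TAM after the combination Ifng rose (log2 1.22, adjusted p = 0.0031, DESeq2 Wald test) at a mean level of 135, and Il16 fell by 0.59. T cell markers in TAM summed to 1877, with a median log2 fold change of 0.08 and 0 called in that comparison. Natural killer markers summed to 3328 there, and of the 4 tested 1 rose, Klrk1 (0.93, adjusted p = 0.00033, DESeq2 Wald test), with a median of -0.06. Klrk1, the gene of the activating receptor NKG2D, made up most of that sum at a level of 3060, against 5.30 for Ncr1. The part of both lists in the Ifng value was not tested. In CD8 after the combination Ifng (0.80, adjusted p = 0.0038), Csf1 (0.71, adjusted p = 0.031) and Csf2 (0.64, adjusted p = 0.0496, DESeq2 Wald test) rose and Il16 fell by 0.42. The other IL-1 family genes, 6 in the tables, were mostly at levels under 10, and 0 of the 2 tested in IM and TAM were called.

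The groups in which Il27 rose also differed in markers of the myeloid cells themselves and of other cell types. In IM 2 of the 8 monocyte markers rose and 5 fell after both the combination (median log2 -0.78) and IL-12 (-0.54), with 0 called after SBRT. Ly6c2, a gene of the Ly6C sort marker, was among those that rose and Fn1 among those that fell. In TAM 2 rose and 2 fell after each treatment. Among 10 dendritic cell markers in IM, Clec9a and Batf3 rose and Flt3 and Cd209a fell after the combination, at a summed level of 2944 for the list. Mitochondrially encoded genes had a median of -0.32 after the combination, -0.27 after IL-12 and -0.32 after SBRT in IM, and of -0.08, -0.32 and -0.28 in TAM, with 0 called. Of 10 macrophage markers in IM, the complement genes C1qa, C1qb and C1qc rose (log2 0.60, 0.71 and 0.74) after the combination and Mrc1, the mannose receptor gene, fell by 0.99. After IL-12 alone C1qb rose by 0.53 and Mrc1 fell by 0.998 in IM, and in TAM Mrc1 fell by 0.78 after the combination.

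Klrk1 of the natural killer list rose in each of the 4 comparisons in which Il27 rose. Its log2 fold change was 1.62 after the combination and 1.17 after IL-12 in IM, and 0.93 and 1.21 in TAM. Of the other 7 natural killer markers 0 were called there, with 3 or 4 of them untested in TAM, and the median of the list ran between -0.29 and -0.05. Nr4a1, a dissociation stress gene, fell in IM by 0.71 after the combination and by 0.42 after IL-12, as did Mmp8 of the neutrophil list by 1.04 and 0.95 and Cdh1 of the epithelial list by 0.66 and 0.64. In IM Flt3 and Cd209a also fell after IL-12, and Pecam1, an endothelial marker, rose after the combination (0.72). In TAM after the combination the fibroblast markers Col1a1 and Dcn fell by 1.09 and 0.90, Jchain of the B and plasma cell list fell by 0.53 and the endothelial marker Vwf rose (0.63), and after IL-12 Clec9a rose (0.90). The part of these shifts in the Il27 and Ebi3 results was not tested.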

How the data were processed

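Per the labels' protocols, sorted cells were lysed, RNA was column-purified and a TruSeq RNA V2 kit, which keeps no strand, gave the libraries. The submitters' processing notes name STAR 2.6.0c, Salmon, Subread with featureCounts, Trimmomatic 0.36, FastQC 0.11.8 and build GRCm38, with no role or order. Per the file headers, the 9 deposited tables are DESeq2 results: a mean normalised signal, a log2 fold change, a Wald score, a p-value and an adjusted p-value. The deposited log2 fold changes may be shrunken, which is not given in the sources used here: between 22 and 2795 genes per table differ in sign from the statistic, from which direction was taken. Within a population the mean did not differ between tables. The tables used here hold no library values: depth is unknown.

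Standard errors are the median of fold change over statistic in the 3 tables. Differences were tested against a normal distribution, with Benjamini-Hochberg adjustment over every gene that had a p. The procedure was also run on simulated normal values with these same standard errors, which cannot show how it behaves on the real libraries. Exon lengths are from GENCODE M21. Scripts ran in Python 3.11.15 with pandas 2.3.3 and scipy 1.17.1. Named genes were the 10 cytokines, up to 4 called genes per list and comparison in IM and TAM (2 in CD8) by adjusted p, the receptors and the 3 nearest genes to each called member; Il10rb, Il2rg, Il4, Csf1, Csf2, the overlapping genes and the markers were named after their values were seen. The members and lists were chosen with earlier results of these data known. Alternatives were an adjusted p threshold of 0.1 or 0.01, an empirical null, other adjustments and level filters, and removal of the control variance.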

Additional observations from a re-analysis of the deposited data

How the results depend on the processing

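The 6 called results were recomputed under thresholds of 0.01 and 0.1, without the filter on low levels, on genes with a level of at least 50, with centred statistics and with an empirical null, in which the statistics are divided by their own spread over genes. The 4 calls of Il27 held under all of these, with adjusted p from 2.5e-09 to 2.9e-06 in IM after IL-12, 4.8e-10 to 0.00024 in IM after the combination, 8.2e-06 to 4.8e-05 in TAM after IL-12 and 5.7e-05 to 0.0057 in TAM after the combination. Under the empirical null the cytokine genes called were 1 in place of 2 in IM after the combination, where Ebi3 had an adjusted p of 0.24, and 0 in place of 1 in CD8 after the combination, where Il10 had 0.096. The spread of the statistic was 1.42 and 1.43 there, and calls over all genes were 337 in place of 1254 and 186 in place of 1129. A threshold of 0.1 added 1 gene in CD8 after SBRT, Il6 at 0.052.

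With control variance removed, 1 cytokine gene in place of 0 was called for the combination minus SBRT in IM (Il27, 0.0036) and in CD8 (Il6, 0.027) and for SBRT minus IL-12 in IM (Il27, 0.016). Over all genes that setting called 355 in place of 67, 461 in place of 25 and 104 in place of 8. For the combination minus IL-12 in IM, 0 genes were called by the normal test, 225 had an unadjusted p below 0.05, and 17 were called with control variance removed. Of 202 values of single genes, most of them not called, 196 kept their side of the threshold under every alternative run. The threshold was crossed towards a call in 4 cases and away from one in 2, those of Ebi3 and Il10. Direction was compared only for called values, and none of these reversed. No paired analysis was possible because the tables hold no values of single libraries, and leaving out each replicate could not be run for the same reason.

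The standard errors are implied, whether the fold changes are shrunken is not given in the sources used here, and depth is unknown, so no detection limit can be given for a low level such as that of Il27 in CD8. Most TAM groups had 2 libraries.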
